A study of Phyllostachys nigra with 21 samples.

Results

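Black bamboo (Phyllostachys nigra, Pn) is a woody grass whose young green culms darken as they mature. The comparison described here is between culms kept at room temperature, 25 °C, for 15 days (RT15d) and culms collected before any treatment (CK), with 3 libraries in each group, so that 6 of the 21 libraries of the series carry it. Both groups were taken from rhizome-grown Pn plants raised in a greenhouse, and no genotype beyond the species is given. The RT15d plants had been moved into a growth chamber for the trial, while CK was sampled before any treatment. The remaining groups were culms after 1 day (RT1d) or 25 days (RT25d) at 25 °C and after 1, 15 or 25 days at 4 °C (LT), and they enter only where they show how a gene at RT15d stood to its neighbours. The question was which genes differed from the state before treatment after 15 days at 25 °C. The chamber at 25 °C, the move into it and 15 further days of culm age set RT15d apart from CK together and cannot be told apart, and the temperature of the greenhouse is not stated.

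Of 42460 genes in the table, 29913 passed a filter on low values, which asked for at least 1 FPKM in at least 3 libraries. FPKM is a fragment count scaled for transcript length and for the depth of the library. Genes were called differentially expressed (DEGs) when the groups differed 2-fold or more and the adjusted p did not exceed 0.05. The p came from the quasi-likelihood test of edgeR and was adjusted over all genes tested by the Benjamini-Hochberg method. By that rule 3122 genes were higher in RT15d than in CK (10.4% of those tested) and 4578 were lower (15.3%). These 2 shares are the background against which each gene group below is read. Changes of 4-fold or more were found in 947 of the genes called higher and 2015 of those called lower. The libraries of the groups did not overlap for 3096 of the 3122 higher genes and 3703 of the 4578 lower genes. A call makes non-overlap likely, and its share over all genes tested was not counted, so these counts add no support to the calls. Gene models, and their names, come from the genome of moso bamboo (P. edulis), and a gene is given by its identifier in the table with the name attached to it there.

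Total counts ranged from 44959388 to 46696000 in CK and from 43077451 to 46846635 in RT15d. The spread within the groups was very unequal. Among 1881 genes with a mean count above 5000, the median coefficient of variation was 23.6% in CK and 2.98% in RT15d. CK replicate 1 stood apart, with a correlation of log2(FPKM + 1) of 0.888 and 0.905 with CK replicates 2 and 3, which correlated at 0.985 with each other. The RT15d libraries correlated at 0.991 to 0.992. For genes with 1000 to 3000 counts, the variance over the mean averaged 189 in CK and 6.91 in RT15d, and the RT15d libraries were therefore close to repeated measurements of 1 sample. The study's methods describe several shoots per treatment as biological replicates but not how shoots were divided among the libraries, so p-values measure only a spread between libraries. Each gene had 1 estimate of that spread, shared by all 21 libraries, not that of CK and RT15d alone. The same median coefficient of variation was 2.66% in LT15d, 2.67% in LT25d, 9.26% in LT1d, 10.1% in RT1d and 13.9% in RT25d, all below CK. With the 6 CK and RT15d libraries fitted alone, 2656 genes were called higher and 3805 lower. With the RT15d libraries summed to 1 library, 2185 genes were called higher and 3119 lower, and without CK replicate 1 the counts were 4311 and 5171. Scaling set the balance of calls. With library size alone 4490 genes were higher and 3537 lower, and the median change over all genes was 0.22 on the log2 scale in place of -0.01. With limma on log2(FPKM + 1), 3113 were higher and 2478 lower. In such bulk samples fewer cells of a type and less RNA per cell cannot be told apart.

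Several processes recur below. Suberin is a waxy polyester of long-chain fatty acids joined to ferulic acid, and together with the Casparian strip it seals cell walls against water. Its aromatic part, lignin and many pigments start from phenylalanine through the phenylpropanoid pathway. Jasmonate signalling is held back by JAZ repressors, which belong to the TIFY family and whose own genes are switched on by jasmonate, while CBF factors of the AP2/ERF family control genes for cold and drought tolerance.

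Of the 15 named genes with the largest rises, 7 have names linked to suberin, the Casparian strip or wall lipids. They were at or close to 0 in CK and between 15.2 and 44.1 FPKM in RT15d. They were grouped after their values were seen and the grouping carries no test. The gene named titin (PH02Gene32876, log2 fold change 10.23) and PH02Gene13836, without a functional name (log2 fold change 9.17), were among the 15 too. Both genes for omega-hydroxypalmitate O-feruloyl transferase, the enzyme that adds ferulic acid to long-chain hydroxy acids, were in this group. PH02Gene49011 (scaffold 2, 5017442 to 5020082, plus strand) had 0, 0 and 0.0647 FPKM in CK replicates 1, 2 and 3 and 29.9, 25.3 and 28.7 FPKM in RT15d (log2 fold change 10.01 ± 0.81, adjusted p = 8.82e-08). PH02Gene31779 (scaffold 13, 35661216 to 35664430, minus strand) had 0, 0 and 0.0415 FPKM in CK and 27.3, 26.2 and 27.3 in RT15d (log2 fold change 10.53 ± 0.81, adjusted p = 5.29e-08). CK held no more than a few reads of either gene. With 4 counts taken as 1 read pair, the ratio of summed reads was 820.3-fold (95% exact interval 227 to 6778) for the first gene and 1611-fold (95% exact interval 289 to 63657) for the second, and these intervals cover counting error only. Both genes carry the same name, and how multi-mapping reads were counted is not given, so the share of each copy is uncertain. Errors of log2 fold changes here and below are standard errors of the fit, and coordinates are on the scaffolds of the P. edulis genome that the table uses.

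Chain modification and transport followed the same pattern. PH02Gene30440, named cytochrome P450 86B1, a hydroxylase of very long fatty acids in Arabidopsis suberin, had 0, 0.0778 and 0.121 FPKM in CK and 27.5, 28.7 and 27.8 in RT15d (log2 fold change 8.36 ± 0.90, adjusted p = 1.43e-06). PH02Gene11876, a non-specific lipid-transfer protein-like gene of a family that carries lipids to the wall, had 0 counts in all CK libraries and 44.1, 37.3 and 41.7 FPKM in RT15d, at least 119.7-fold higher when each CK library is set at a floor of 12 counts. The second lipid-transfer gene, PH02Gene06714, had 0, 0.171 and 0.0823 FPKM in CK and 33, 29.4 and 30.9 in RT15d (log2 fold change 8.09 ± 0.86, adjusted p = 1.23e-06). Non-overlap of the libraries was a condition for naming the largest rises, so it is no separate result for these genes.

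Wall sealing genes joined them. PH02Gene37612, CASP-like protein 1C1, belongs to a family of membrane proteins whose founding members in Arabidopsis build the Casparian strip. It was at 0 in every CK library and at 20.9, 20.4 and 23.4 FPKM in RT15d, at least 61.4-fold higher. PH02Gene25849, Peroxidase 11, from the class III peroxidases that cross-link wall phenolics, was also at 0 in CK and reached 15.2, 19.2 and 16.5 FPKM, at least 75.7-fold higher (adjusted p = 1.17e-05 and 5.77e-06).

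Further members of the pathway were looked up after these values were seen. PH02Gene17104, MYB39, whose Arabidopsis namesake regulates suberin in the endodermis, had 0.0815, 0 and 0 FPKM in CK and 6.17, 4.82 and 7.4 in RT15d (log2 fold change 7.49 ± 0.79, adjusted p = 2.64e-06). The MYB93-like gene PH02Gene29058 was at 0 in CK and at 2.06, 1.27 and 2.08 FPKM in RT15d, at least 9.52-fold higher. Fatty acid hydroxylases of the CYP86A type joined them. PH02Gene26714 had 0, 0 and 0.0623 FPKM in CK and 5.42, 5.81 and 5.58 in RT15d (log2 fold change 7.77 ± 1.05, adjusted p = 5.05e-05), and PH02Gene43723 was at 0 in CK and at 1.68, 1.21 and 1.72 FPKM in RT15d, at least 15.8-fold higher. PH02Gene47331, one of 2 probable glycerol-3-phosphate acyltransferase 3 genes, which in Arabidopsis belong to the family joining fatty acids to glycerol for polyester, was at 0 in CK and at 2.83, 3.69 and 3.68 FPKM in RT15d, at least 22.8-fold higher. The other, PH02Gene18306, had 0, 0.0306 and 0 FPKM in CK and 2.26, 2.61 and 2.34 in RT15d (log2 fold change 7.39 ± 1.51, adjusted p = 0.000915).

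The rise did not cover every gene with such a name. Of the 48 tested genes matched by suberin and Casparian strip words, a list made after the values were seen, 15 were called higher and 10 lower, and their summed level was 427, 341 and 393 FPKM in CK and 467, 440.3 and 469 in RT15d. A second CYP86B1 gene, PH02Gene11056, rose from 7.32, 4.72 and 6.13 to 32.3, 31.8 and 32.8 FPKM (log2 fold change 2.18 ± 0.21, adjusted p = 4.73e-07). The groups did not overlap. The third, PH02Gene11610, fell from 68.1, 34.5 and 40.1 to 18.9, 16.9 and 20.4 FPKM (log2 fold change -1.57 ± 0.50, adjusted p = 0.0148), a call that was lost with RT15d summed (adjusted p = 0.168). Fatty acyl-CoA reductase 1 (PH02Gene18813), which makes fatty alcohols for wax, fell from 37.6, 57.9 and 69.9 to 7.37, 8.27 and 7.76 FPKM (log2 fold change -3.10 ± 0.22, adjusted p = 1.83e-08). In the wider list of wax, cutin and lipid transfer genes, 20 of 133 tested genes were called higher and 32 lower, with a median log2 fold change of -0.37. The KEGG pathway cutin, suberine and wax biosynthesis held 11 genes higher and 11 lower of 55.

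**Figure D1:**
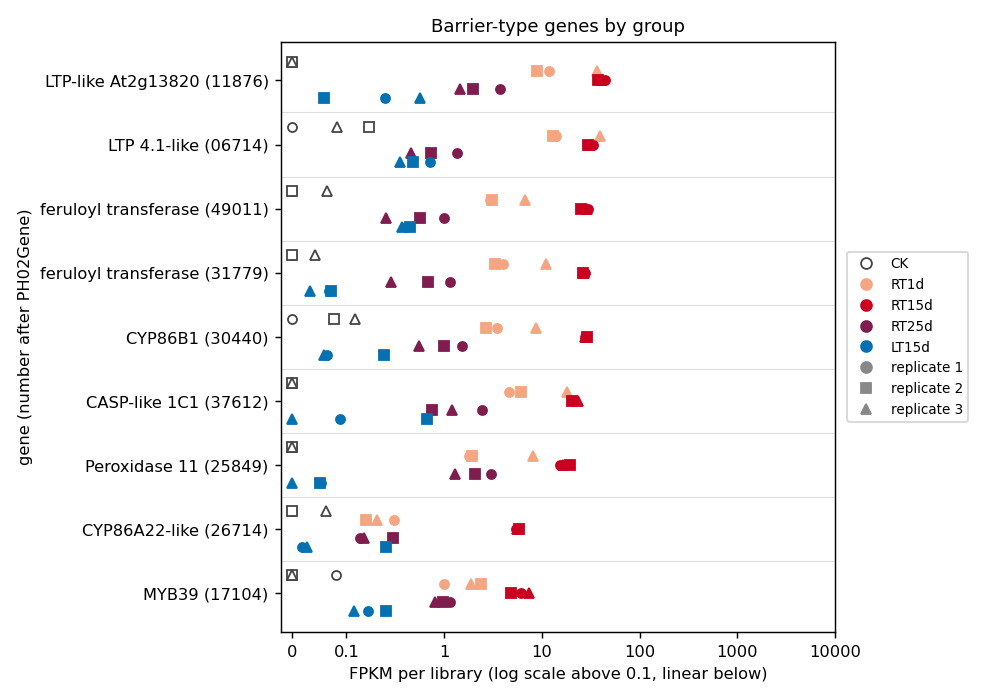
FPKM per library (horizontal, log scale above 0.1 and linear below) of 9 barrier-type genes in CK, RT1d, RT15d, RT25d and LT15d, 1 point a library with the replicate as its shape. Every gene lies at or near 0 in CK and between 4.82 and 44.1 FPKM in RT15d, with RT25d and LT15d far to the left of RT15d and RT1d between CK and RT15d or beside RT15d.

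Some of these genes differed between RT1d and RT15d and others did not pass that test. At RT1d the feruloyl transferase PH02Gene49011 stood at 4.27 ± 2.18 FPKM (mean ± SD, n = 3), at RT15d at 28 ± 2.4, at RT25d at 0.602 ± 0.371 and at LT15d at 0.408 ± 0.0373. RT15d exceeded RT1d (log2 2.79 ± 0.51, adjusted p = 0.000882), RT25d was below RT15d (log2 -5.55 ± 0.59, adjusted p = 1.67e-06) and so was LT15d (log2 -5.68 ± 0.60, adjusted p = 4.09e-07). CYP86B1 PH02Gene30440 gave 2.58 ± 0.64, adjusted p = 0.00702 for RT15d over RT1d and -4.79 ± 0.72, adjusted p = 5.58e-05 for RT25d over RT15d on the same scale. For the lipid-transfer gene PH02Gene11876 the difference from RT1d did not pass the test (log2 1.17 ± 0.64, adjusted p = 0.192), nor did that of CASP-like PH02Gene37612 (log2 1.23 ± 0.72, adjusted p = 0.228). The same held for lipid-transfer gene PH02Gene06714, at 22.3 ± 15.2 FPKM in RT1d and 31.1 ± 1.79 in RT15d (log2 0.56 ± 0.57, adjusted p = 0.509). All 3 were lower in RT25d and in LT15d than in RT15d. Every gene compared here, PH02Gene49011 and PH02Gene30440 included, was picked for its rise to RT15d. The same RT15d libraries enter each comparison, which favours such differences. Among CK, RT1d, RT15d, RT25d and LT15d, the mean of the feruloyl transferase PH02Gene49011 was highest in RT15d, the group for which it was picked.

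Because such genes mark particular tissues, marker lists were read beside them. Root markers, a list that itself includes CASP-like genes, summed to 281, 206 and 234 FPKM in CK and 272, 255 and 269 in RT15d, which overlap. Epidermis and cuticle markers had 9 of 54 tested genes higher and 16 lower. Markers of xylem and fibre with secondary walls were scarce in both groups, with a summed level of 8.06, 10.3 and 9.31 FPKM in CK and 15, 13.4 and 13.5 in RT15d and 6 of 28 listed genes at 0 in all 6 libraries. Chlorophyll a-b binding proteins, which mark green cortex, summed to 406, 588 and 695 FPKM in CK and 341, 319.9 and 354 in RT15d, and 4 of 10 were lower. Markers of phloem, with 1 higher and 0 lower of 3, dividing tissue, with 6 and 1 of 21, and flowers and pollen, with 5 and 3 of 28, were also read. The part of tissue composition in these changes was not tested.

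Some genes at the entry into aromatic metabolism rose. PH02Gene27922, a DAHP synthase that commits carbon to the shikimate pathway, had 8.75, 18 and 19.2 FPKM in CK and 236, 247 and 242 in RT15d (log2 fold change 3.69 ± 0.39, adjusted p = 1.16e-06). Every RT15d library was above every CK library. Of DAHP synthase genes, a list matched after the values were seen, 2 of 6 tested genes were called higher and 0 lower, with a median log2 fold change of 0.41, the other being PH02Gene48249 (log2 fold change 2.38 ± 0.45, adjusted p = 0.000339 in edgeR's test). At an unadjusted p under 0.05, 1 was lower, and DESeq2 called 0 lower. The abundant copy PH02Gene18212 was not called, at 155, 274 and 203 FPKM in CK and 174, 177 and 178 in RT15d (log2 fold change -0.54 ± 0.30, adjusted p = 0.148). The most abundant phenylalanine ammonia-lyase (PAL), PH02Gene27016, the first enzyme of the phenylpropanoid pathway, rose from 102, 189.7 and 178 to 476, 455 and 486 FPKM (log2 fold change 1.31 ± 0.36, adjusted p = 0.00591), a call that was lost with RT15d summed to 1 library (adjusted p = 0.0635). A second PAL, PH02Gene30509, and the ligase 4CL PH02Gene26838, both named after their values were seen, rose from 56.4, 53.6 and 53.5 to 191, 192 and 194 FPKM and from 40.1, 69 and 78.5 to 229, 227 and 237 FPKM. In the whole list of tryptophan and shikimate synthesis 5 of 59 tested genes were called higher and 19 lower, with a median log2 fold change of -0.33, and with RT15d summed 4 genes of the list were lower. The most abundant of them, indole-3-glycerol phosphate lyase PH02Gene11850, which releases indole, had 522, 195 and 179 FPKM in CK and 98.6, 101 and 101 in RT15d (log2 fold change -1.77 ± 0.61, adjusted p = 0.0233). Its call was lost without CK replicate 1 (adjusted p = 0.0953), and also when any 1 of the RT15d libraries was left out (adjusted p from 0.0601 to 0.0641).

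Lignin genes moved in both directions. Of lignin monomer genes, 26 of 105 tested genes were called higher and 22 lower, with a median log2 fold change of 0.31, and both shares were above the background. Caffeic acid O-methyltransferase PH02Gene02562, which methylates lignin precursors, rose from 89.8, 34.4 and 37.4 to 418, 377 and 423 FPKM (log2 fold change 2.71 ± 0.23, adjusted p = 1.42e-07), and cinnamyl alcohol dehydrogenase PH02Gene39617, which makes the alcohols that polymerise, rose from 86.3, 51.8 and 58.7 to 343, 329 and 362 FPKM (log2 fold change 2.16 ± 0.15, adjusted p = 1.89e-08). These 2 genes were chosen after their values were seen. Cinnamoyl-CoA reductase went the other way, with PH02Gene42960 at 8.84, 24.4 and 9.7 FPKM in CK and 1.3, 1.39 and 0.92 in RT15d (log2 fold change -3.87 ± 0.39, adjusted p = 6.95e-07). Of laccases, which oxidise lignin alcohols, 8 of 23 tested genes were called higher and 4 lower, with a median log2 fold change of 0.99. Without CK replicate 1 the laccase counts were 7 higher and 8 lower, and the summed laccase level was 10.7, 81.5 and 79.7 FPKM in CK and 38.6, 40.3 and 40.8 in RT15d. Of class III peroxidases, 15 of 59 tested genes were called higher and 12 lower, with a median log2 fold change of 0.58. Cellulose synthases and COBRA-like genes, which build the cellulose framework, had 0 of 23 tested genes higher and 6 lower in edgeR's test. At an unadjusted p under 0.05, 4 were higher, DESeq2 called 0 and without CK replicate 1 edgeR called 3. COBRA-like protein 1 (PH02Gene20375) fell from 42, 59 and 74.1 to 17.5, 14.9 and 15.5 FPKM (log2 fold change -2.15 ± 0.21, adjusted p = 6.69e-07). Expansin-like A2 (PH02Gene29510), of a family that loosens walls, fell from 16.5, 18.1 and 8.23 to 0.463, 0.398 and 0.239 FPKM (log2 fold change -5.52 ± 0.46, adjusted p = 1.07e-07).

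The methyl cycle, which supplies the methyl groups for lignin precursors and many other compounds, had most of its measured enzymes called higher. In a list added after the values were seen, 9 of 11 tested genes for S-adenosylmethionine synthase, adenosylhomocysteinase and methionine synthase were called higher and 0 lower. None of the 11 was lower at an unadjusted p under 0.05 or by DESeq2. Their summed level was 734, 740.3 and 750.1 FPKM in CK and 2661, 2748 and 2698 in RT15d. S-adenosylmethionine synthase 1 (PH02Gene04324) rose from 35.6, 60.8 and 71.9 to 397, 444 and 414 FPKM (log2 fold change 2.62 ± 0.33, adjusted p = 7.7e-06), and the methionine synthase PH02Gene31571 rose from 22.1, 34.8 and 41.5 to 286, 289 and 282 FPKM (log2 fold change 2.85 ± 0.30, adjusted p = 1.08e-06). Their levels at RT1d, 415 ± 159.6 and 249 ± 104 FPKM, did not differ from RT15d in the test (log2 0.10 ± 0.31, adjusted p = 0.847 and 0.29 ± 0.28, adjusted p = 0.481).

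In the branch from tryptophan to serotonin and melatonin, 6 of 11 tested genes were called higher and 0 lower, and 5 of the 6 belong to the first step. At an unadjusted p under 0.05, 1 was lower, and DESeq2 called 0 lower. All 5 tested aromatic-L-amino-acid decarboxylase-like genes, which remove the carboxyl group of tryptophan in this branch and may use related amino acids, were called higher. PH02Gene26874 had 1.23, 0.618 and 0.366 FPKM in CK and 14.9, 16.7 and 15.1 in RT15d (log2 fold change 4.16 ± 0.70, adjusted p = 0.00013). PH02Gene42909 had 1.26, 1.14 and 1.66 FPKM in CK and 13.4, 12.8 and 13.9 in RT15d (log2 fold change 3.05 ± 0.64, adjusted p = 0.000839). PH02Gene31517 rose from 0.991, 1.27 and 0.968 to 9.2, 9.52 and 8.4 FPKM, and PH02Gene26873 from 0.286, 0.0881 and 0.39 to 4.81, 5.04 and 5.01 FPKM. The fifth, PH02Gene42906, had 0, 0.0652 and 0.0201 FPKM in CK and 0.954, 1.6 and 0.749 in RT15d. The groups did not overlap for any of the 5. PH02Gene31517, PH02Gene26873 and PH02Gene26874 lie on scaffold 18 between 15679858 and 15856584, and the other 2 on scaffold 22 between 53843595 and 54004248. Reads of such neighbouring copies may have been divided between them.

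No measured gene for the acetylation or methylation steps of this branch was called, and the step from tryptamine to serotonin was not analysed here. Serotonin N-acetyltransferase 1, which makes N-acetylserotonin, had 28, 17.7 and 19.9 FPKM in CK and 13.7, 12.3 and 13.6 in RT15d for PH02Gene05544 (log2 fold change -0.96 ± 0.16, adjusted p = 0.000105), short of the 2-fold limit, and the second gene, PH02Gene02432, gave a log2 fold change of -0.12 ± 0.15. The acetylserotonin O-methyltransferases PH02Gene07987 and PH02Gene42942, which complete melatonin, gave 0.85 ± 0.78 and 0.28 ± 0.81. Of 2 tryptamine hydroxycinnamoyltransferase 2-like genes, which join tryptamine to phenolic acids, PH02Gene48782 was called higher at under 1 FPKM (log2 fold change 3.23 ± 0.63, adjusted p = 0.000509) and PH02Gene48286 was not (log2 fold change 0.43 ± 0.59, adjusted p = 0.571). The decarboxylases were already up at RT1d, where PH02Gene42909 stood at 9.56 ± 5.08 FPKM, and no difference from RT15d passed the test for it (log2 0.56 ± 0.58, adjusted p = 0.505), while LT15d was higher than RT15d (log2 2.39 ± 0.60, adjusted p = 0.00219).

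Flavonoid genes split as well. Among genes for flavonoids and anthocyanins, 16 of 66 tested genes were called higher and 12 lower, with a median log2 fold change of 0.02. Flavanone 3-dioxygenase 2-like PH02Gene00897, which hydroxylates flavanones, fell from 107, 491 and 316 to 67.9, 72.3 and 67.1 FPKM (log2 fold change -2.46 ± 0.39, adjusted p = 6.42e-05). Of the anthocyanidin reductases, which make flavan-3-ols, PH02Gene27994 fell from 20.7, 109 and 118 to 11.6, 11.9 and 13.3 FPKM (log2 fold change -3.07 ± 0.44, adjusted p = 2.45e-05), and PH02Gene32095 had 159, 96.3 and 123 FPKM in CK and 203, 209.7 and 202 in RT15d with a change below 2-fold (log2 fold change 0.47 ± 0.11, adjusted p = 0.00235).

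**Figure D2:**
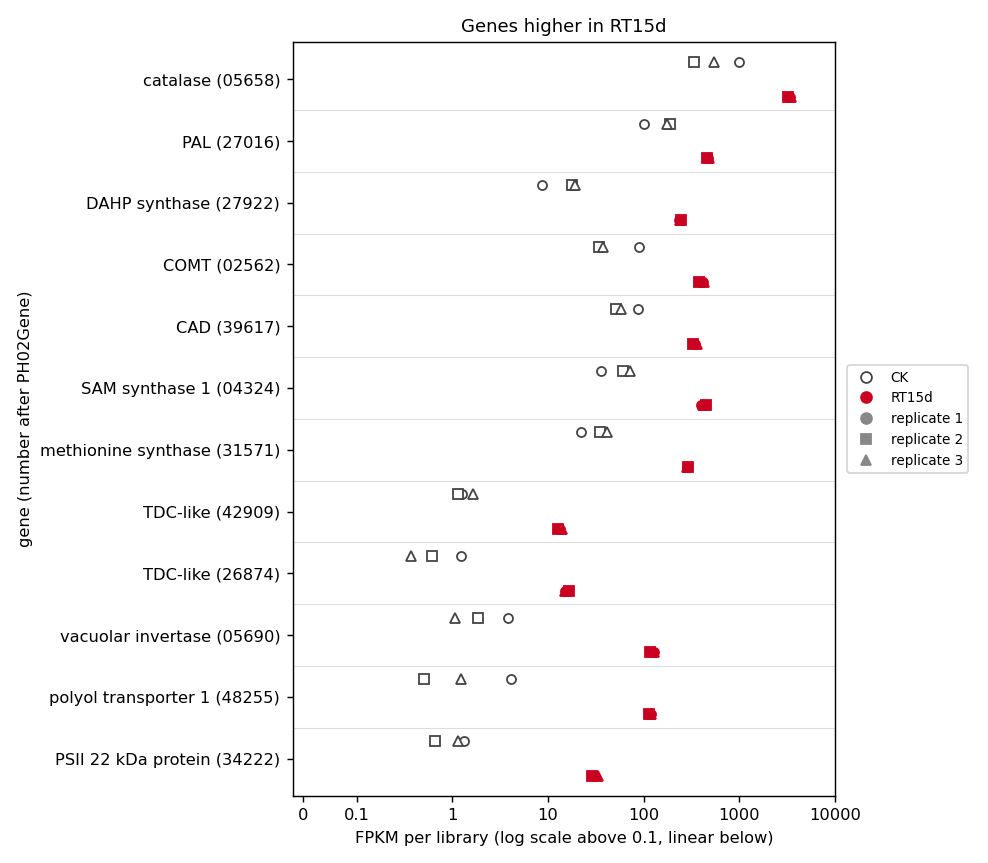
FPKM per library (horizontal, log scale above 0.1 and linear below) of 12 genes called higher in RT15d, with CK as open and RT15d as filled points and the replicate as the shape. In every gene the RT15d points lie together to the right of the CK points, from catalase above 3000 FPKM to the decarboxylases (TDC-like) near 15 FPKM.

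Detoxifying and antioxidant genes contributed some of the most abundant RNAs. Catalase PH02Gene05658, which breaks down hydrogen peroxide, was the most abundant of all genes in RT15d at 3391, 3212 and 3494 FPKM, against 982, 333 and 543 FPKM in CK (log2 fold change 2.24 ± 0.24, adjusted p = 1.36e-06). RT15d was also above RT1d (log2 1.40 ± 0.23, adjusted p = 0.000379) and above LT15d (log2 of LT15d over RT15d -2.04 ± 0.24, adjusted p = 1.2e-06). In its list, 4 of 57 antioxidant enzyme genes were called higher and 2 lower, with 8 higher and 4 lower without CK replicate 1 and 10 higher and 1 lower when scaled by library size. Of glutathione S-transferases, which attach glutathione to reactive or foreign compounds, 24 of 77 tested genes were called higher and 8 lower, with a median log2 fold change of 0.57. GST U17 PH02Gene10340 rose from 2.5, 3.1 and 4.28 to 63.9, 71.7 and 62.8 FPKM (log2 fold change 4.06 ± 0.46, adjusted p = 2.29e-06), and the abundant GSTU1 PH02Gene15208 from 272, 83.7 and 119.7 to 535, 497 and 550.4 FPKM (log2 fold change 1.54 ± 0.25, adjusted p = 0.0001). A pair of ascorbate synthesis genes, picked after their values were seen, rose too. They were GDP-mannose 3,5-epimerase 1 PH02Gene48929, from 41.4, 25.4 and 27.2 to 259, 259.7 and 252 FPKM, and GDP-L-galactose phosphorylase 2 PH02Gene15847, from 35.5, 67.7 and 57.4 to 226, 218 and 223 FPKM.

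Of the invertase genes, 1 vacuolar and 1 cell wall gene, each picked as one of the largest changes, moved in opposite directions. Vacuolar invertase PH02Gene05690, which splits stored sucrose, had 3.87, 1.86 and 1.07 FPKM in CK and 128, 117 and 129 in RT15d (log2 fold change 5.56 ± 0.54, adjusted p = 5.32e-07). Cell wall invertase PH02Gene06193, which splits sucrose outside the cell, had 14.6, 273 and 153 FPKM in CK and 0.258, 0.795 and 0.537 in RT15d (log2 fold change -8.45 ± 1.16, adjusted p = 1.71e-05). Non-overlap of the libraries was a condition for naming both genes, and CK replicate 1 was at least 10 times below the other CK libraries for the second gene. Trehalose-phosphate phosphatase PH02Gene20325, which makes trehalose, fell from 29.2, 235 and 169 to 0.768, 0.557 and 0.729 FPKM (log2 fold change -8.05 ± 0.68, adjusted p = 1.41e-07). In the list of sucrose, trehalose and raffinose genes 16 of 101 tested genes were called higher and 32 lower, with a median log2 fold change of -0.23. Sucrose synthase PH02Gene02657 and galactinol synthase 2 PH02Gene36618, the most abundant of the list, gave log2 fold changes of -0.13 ± 0.22 and 0.03 ± 0.24 and overlapped between the groups.

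Some transporters of sugars and polyols rose. Polyol transporter 1 PH02Gene48255 rose from 4.15, 0.509 and 1.23 to 119, 113 and 120.3 FPKM (log2 fold change 5.73 ± 0.54, adjusted p = 3.54e-07), and a sorbitol transporter, PH02Gene01594, named after its value was seen, from 46.5, 9.49 and 12.9 to 287, 272 and 286 FPKM (log2 fold change 3.44 ± 0.39, adjusted p = 2.62e-06). Of 24 monosaccharide and polyol transporter genes, matched after the values were seen, 10 were called higher and 3 lower, with a median log2 fold change of 0.21. Among aquaporins, the water channels, the plasma membrane gene PH02Gene23321 rose from 228, 157 and 157 to 567, 518 and 580.5 FPKM (log2 fold change 1.38 ± 0.17, adjusted p = 6.03e-06) and the vacuolar TIP1-2 gene PH02Gene34465 fell from 33.3, 198 and 159.6 to 2.4, 1.22 and 2.23 FPKM (log2 fold change -6.38 ± 0.97, adjusted p = 4.87e-05). Their list, whose words also matched some magnesium transporters, had 6 higher and 9 lower of 42, with 10 higher and 12 lower without CK replicate 1 and 9 higher and 6 lower when scaled by library size.

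The list of light harvesting and photosystem genes was called in shares near the background, while the GO term photosystem II had a larger share higher. In light harvesting and photosystems 4 of 48 tested genes were called higher and 6 lower, with a median log2 fold change of 0.0, and scaling by library size gave 9 higher and 6 lower. The GO term photosystem II had 12 higher and 1 lower of 30. The photosystem II 22 kDa protein PH02Gene34222, PsbS, which dissipates excess light energy as heat, had the largest change of the list, with 1.33, 0.659 and 1.16 FPKM in CK and 29.7, 29.2 and 33.6 in RT15d (log2 fold change 4.63 ± 0.59, adjusted p = 8.79e-06). A second PsbS gene, PH02Gene20159, looked up afterwards, rose from 11, 33.1 and 34.6 to 180.0, 165 and 191 FPKM (log2 fold change 2.46 ± 0.59, adjusted p = 0.0025). In the Calvin cycle and photorespiration 6 of 26 tested genes were called higher and 0 lower, with a median log2 fold change of 0.53, with no gene lower at an unadjusted p under 0.05 or by DESeq2. Without CK replicate 1, 3 were higher, and 3 also with RT15d summed. Glycine dehydrogenase PH02Gene16965, of the photorespiratory pathway, rose from 21.7, 24.8 and 35 to 132, 119.8 and 128 FPKM (log2 fold change 1.95 ± 0.20, adjusted p = 6.69e-07). The Rubisco small subunit gene PH02Gene30287 and the activase gene PH02Gene18719, the most abundant of the list, gave -0.40 ± 0.45 and 0.67 ± 0.41 on the log2 scale and were not called. In chlorophyll synthesis 1 of 22 tested genes were called higher and 3 lower, with a median log2 fold change of 0.12, with glutamyl-tRNA reductase 2 PH02Gene14878, at the start of the pathway, down from 36.1, 105 and 63.1 to 15.2, 15.8 and 16 FPKM (log2 fold change -2.43 ± 0.28, adjusted p = 3.3e-06). Chlorophyll synthesis counts were 1 higher and 5 lower without CK replicate 1 and 5 higher and 3 lower when scaled by library size.

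Of the histones, which package DNA, more were called higher than lower. Of histone genes, 14 of 42 tested genes were called higher and 4 lower, with a median log2 fold change of 1.0. Histone H4 PH02Gene00625 rose from 3.68, 0.475 and 1.27 to 13.5, 12.2 and 12.9 FPKM (log2 fold change 2.64 ± 0.57, adjusted p = 0.00114), while the H2A variant PH02Gene14062, the second most abundant, fell from 134, 194 and 188 to 68.5, 73 and 70.6 FPKM (log2 fold change -1.56 ± 0.17, adjusted p = 2.15e-06). Of cell cycle and DNA replication genes, 13 of 98 tested genes were called higher and 17 lower, with a median log2 fold change of -0.22, and scaling by library size turned the balance to 15 higher and 12 lower. The largest change in that list was in cyclin-D5-1-like PH02Gene33070, from the cyclins that start the cycle, which went from 6.19, 1.64 and 2.33 to 17.2, 18.4 and 18.8 FPKM (log2 fold change 2.23 ± 0.48, adjusted p = 0.00113). Of cytosolic ribosomal protein genes, 2 of 283 were higher and 2 lower, with 12 higher and 3 lower without CK replicate 1. Of organellar ones, 10 of 63 were higher and 0 lower in edgeR's test, with 2 lower at an unadjusted p under 0.05 and 0 by DESeq2. With RT15d summed 2 were higher.

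Jasmonate repressor genes fell. Of the 21 tested TIFY genes, a list matched after the values were seen, 19 were called lower and 0 higher in edgeR's test. None was higher at an unadjusted p under 0.05 or by DESeq2. Their summed level was 2533, 3927 and 2589 FPKM in CK and 652, 662 and 669 in RT15d. TIFY 10c-like PH02Gene03055 (scaffold 3, 20044737 to 20046873, plus strand) had 421, 971 and 564 FPKM in CK and 31.5, 30.8 and 32.8 in RT15d (log2 fold change -4.66 ± 0.46, adjusted p = 5.41e-07). TIFY 10A-like PH02Gene40896 had 152, 400.1 and 197 FPKM in CK and 14.2, 14.8 and 14.4 in RT15d (log2 fold change -4.41 ± 0.47, adjusted p = 1.22e-06). Every RT15d library was more than 10 times below every CK library for both. TIFY 11e-like PH02Gene27185 was at 19.4, 11.9 and 3.53 FPKM in CK and at 0 in all RT15d libraries, at least 20.3-fold lower. Genes PH02Gene27186 and PH02Gene27187 beside it carry a like name, and reads may have been divided among the 3 copies. TIFY 10b PH02Gene21882 was one of the 2 not called, at 236, 270.5 and 243 FPKM in CK and 158, 160.2 and 158 in RT15d (log2 fold change -0.92 ± 0.24, adjusted p = 0.00423). In the whole list for jasmonate and ethylene 10 of 87 tested genes were called higher and 40 lower, with a median log2 fold change of -1.06. The plastid phospholipase A1 EG1 PH02Gene37227, whose rice namesake acts in jasmonate synthesis, went from 3.01, 20.2 and 7.84 FPKM to 0 in every RT15d library, at least 109.5-fold lower.

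AP2/ERF factors include regulators of ethylene and cold responses. In this list 3 of 92 tested genes were called higher and 52 lower, with a median log2 fold change of -1.59, the highest share lower of the fixed lists, and without CK replicate 1 9 higher and 56 lower were called. Ethylene-responsive transcription factor 1 PH02Gene02658 fell from 175, 710.2 and 636 to 40.5, 39.5 and 39 FPKM (log2 fold change -3.99 ± 0.40, adjusted p = 7.51e-07). ERF053 PH02Gene16920 had 62.1, 79.8 and 52.7 FPKM in CK and 0.149, 0.184 and 0.248 in RT15d (log2 fold change -8.60 ± 0.86, adjusted p = 6.72e-07). The ERF017-like gene PH02Gene14183 went from 2.67, 32.2 and 11.2 FPKM to 0 in RT15d, at least 25.9-fold lower. Of the CBF type, a list matched after the values were seen, all 4 tested genes were lower, and with RT15d summed 3 were. CRT/DRE binding factor 1 PH02Gene01490 had 1.24, 36.8 and 33.2 FPKM in CK and 0 in RT15d, at least 84.1-fold lower, and HvCBF11 PH02Gene00580 had 3.83, 37.6 and 44.4 FPKM and 0, at least 78.9-fold lower. CK replicate 1 was far below the other CK libraries for both. RT1d still had 2.39 ± 3.21 and 7.0 ± 8.87 FPKM of these CBF genes and LT15d 0.813 ± 0.246 and 1.72 ± 0.501 FPKM.

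**Figure D3:**
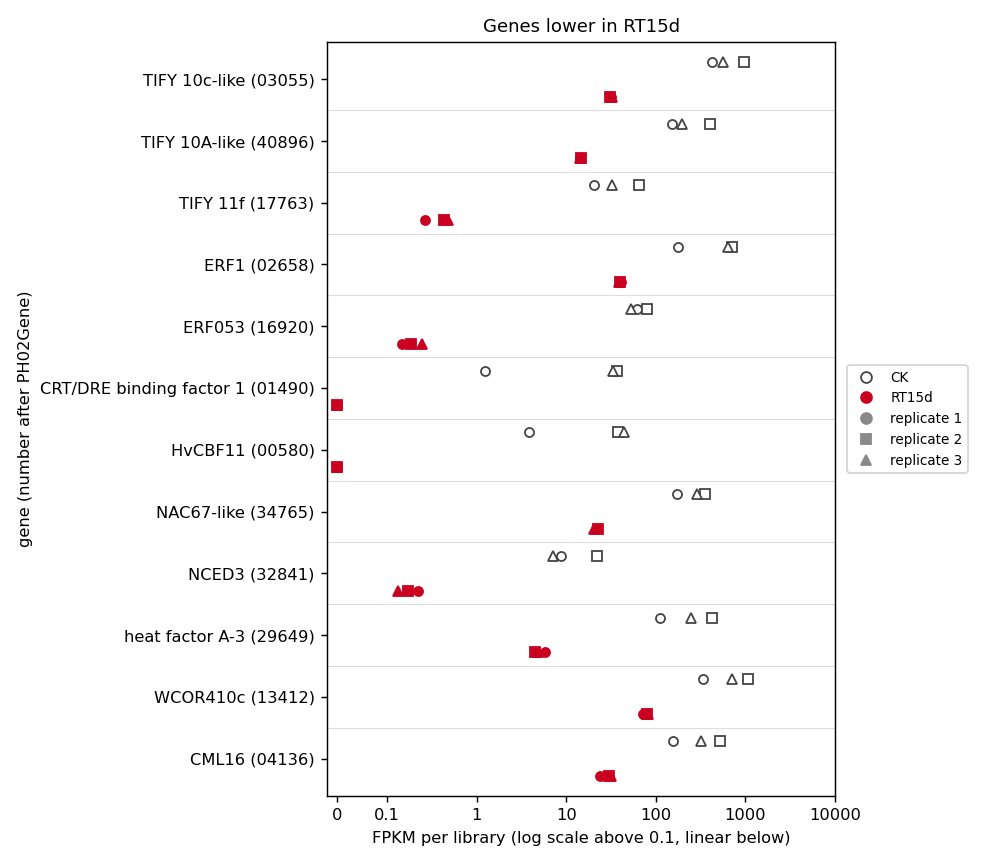
FPKM per library (horizontal, log scale above 0.1 and linear below) of 12 genes called lower in RT15d, with CK as open and RT15d as filled points and the replicate as the shape. All RT15d points lie to the left of the CK points of the same gene, with both CBF genes at 0 in RT15d and CK replicate 1 (circle) below the other CK libraries for these 2 genes.

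Among abscisic acid genes, which act in drought and dormancy, more were called lower than higher. In the list of abscisic acid and carotenoid genes 5 of 52 tested genes were called higher and 26 lower, with a median log2 fold change of -1.0. NCED3 PH02Gene32841, the rate-limiting enzyme of abscisic acid synthesis, had 8.72, 22.2 and 7.17 FPKM in CK and 0.225, 0.172 and 0.134 in RT15d (log2 fold change -6.41 ± 0.66, adjusted p = 9.25e-07). The abscisic stress-ripening protein 3 gene PH02Gene34042 fell from 411, 882 and 595 to 51.8, 48.7 and 48.8 FPKM (log2 fold change -3.96 ± 0.35, adjusted p = 1.78e-07), and SAPK2 PH02Gene40734, an abscisic acid-activated protein kinase, from 289, 193 and 163 to 28, 29.8 and 27.5 FPKM (log2 fold change -3.15 ± 0.16, adjusted p = 5.79e-10). Cold and dehydration proteins were called in both directions, with 5 of 16 higher and 4 lower. The abundant wheat-type cold acclimation protein WCOR410c PH02Gene13412, a dehydrin, nonetheless fell from 332, 1069.8 and 700.1 to 72.6, 80.1 and 81.7 FPKM (log2 fold change -3.48 ± 0.38, adjusted p = 1.55e-06), and the late embryogenesis abundant protein PH02Gene27068 from 92.4, 251 and 136 to 10.1, 8.71 and 8.93 FPKM (log2 fold change -4.42 ± 0.42, adjusted p = 3.66e-07). WCOR410c stood far higher in LT15d than in RT15d (log2 5.05 ± 0.41, adjusted p = 1.84e-08).

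In the NAC, bHLH, WRKY and MYB families of regulators, too, more genes were called lower than higher. Of NAC factors, which act in ageing and stress, 11 of 83 tested genes were called higher and 36 lower, with a median log2 fold change of -0.88, and 21 were lower with RT15d summed. NAC67-like PH02Gene34765 fell from 175, 351 and 288 to 21.8, 22.9 and 20.5 FPKM (log2 fold change -3.93 ± 0.27, adjusted p = 1.55e-08), and NAC105-like PH02Gene32073 from 61.6, 67.7 and 47.2 to 0.722, 0.535 and 1.13 FPKM (log2 fold change -6.46 ± 0.38, adjusted p = 3.35e-09). Of bHLH factors, 6 of 69 tested genes were called higher and 30 lower, with a median log2 fold change of -0.78, led by bHLH35-like PH02Gene13165, which fell from 103, 299.8 and 124 to 3.91, 3.78 and 3.9 FPKM (log2 fold change -5.82 ± 0.65, adjusted p = 2.22e-06), and PH02Gene51458 of the same name. Of WRKY factors, known from defence, 10 of 105 tested genes were called higher and 36 lower, with a median log2 fold change of -0.46. With RT15d summed 22 WRKY genes were lower, and without CK replicate 1 19 were higher. WRKY PH02Gene03691 fell from 14.7, 13.2 and 6.31 to 0.136, 0.365 and 0.477 FPKM (log2 fold change -5.34 ± 0.68, adjusted p = 7.65e-06). Of MYB factors, 19 of 119 tested genes were called higher and 30 lower, with a median log2 fold change of -0.37.

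Of calcium sensors and kinases, 8 of 184 tested genes were called higher and 67 lower, with a median log2 fold change of -0.68, and without CK replicate 1 15 higher and 73 lower were called. The calmodulin-like gene CML16 PH02Gene04136 fell from 157, 520.0 and 317 to 23.6, 30.4 and 31.5 FPKM (log2 fold change -3.85 ± 0.37, adjusted p = 5.09e-07) and CML31 PH02Gene50244 from 13.1, 69.8 and 58.3 to 2.65, 2.77 and 2.79 FPKM (log2 fold change -4.42 ± 0.75, adjusted p = 0.000134), whereas calmodulin-7 PH02Gene12235, the canonical sensor, gave 0.03 ± 0.09. Heat shock genes moved both ways, with 22 of 105 higher and 31 lower. Heat stress transcription factor A-3 PH02Gene29649 fell from 111, 425 and 249.8 to 5.87, 4.51 and 4.87 FPKM (log2 fold change -6.00 ± 0.41, adjusted p = 1.75e-08), heat shock cognate 70 kDa protein 2 PH02Gene00168, a chaperone among the 3 most abundant RNAs of CK, from 442, 1349.5 and 1140.3 to 283, 279 and 288 FPKM (log2 fold change -2.09 ± 0.37, adjusted p = 0.000197), and Hsp90 PH02Gene45866 gave -0.19 ± 0.13.

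**Figure D4:**
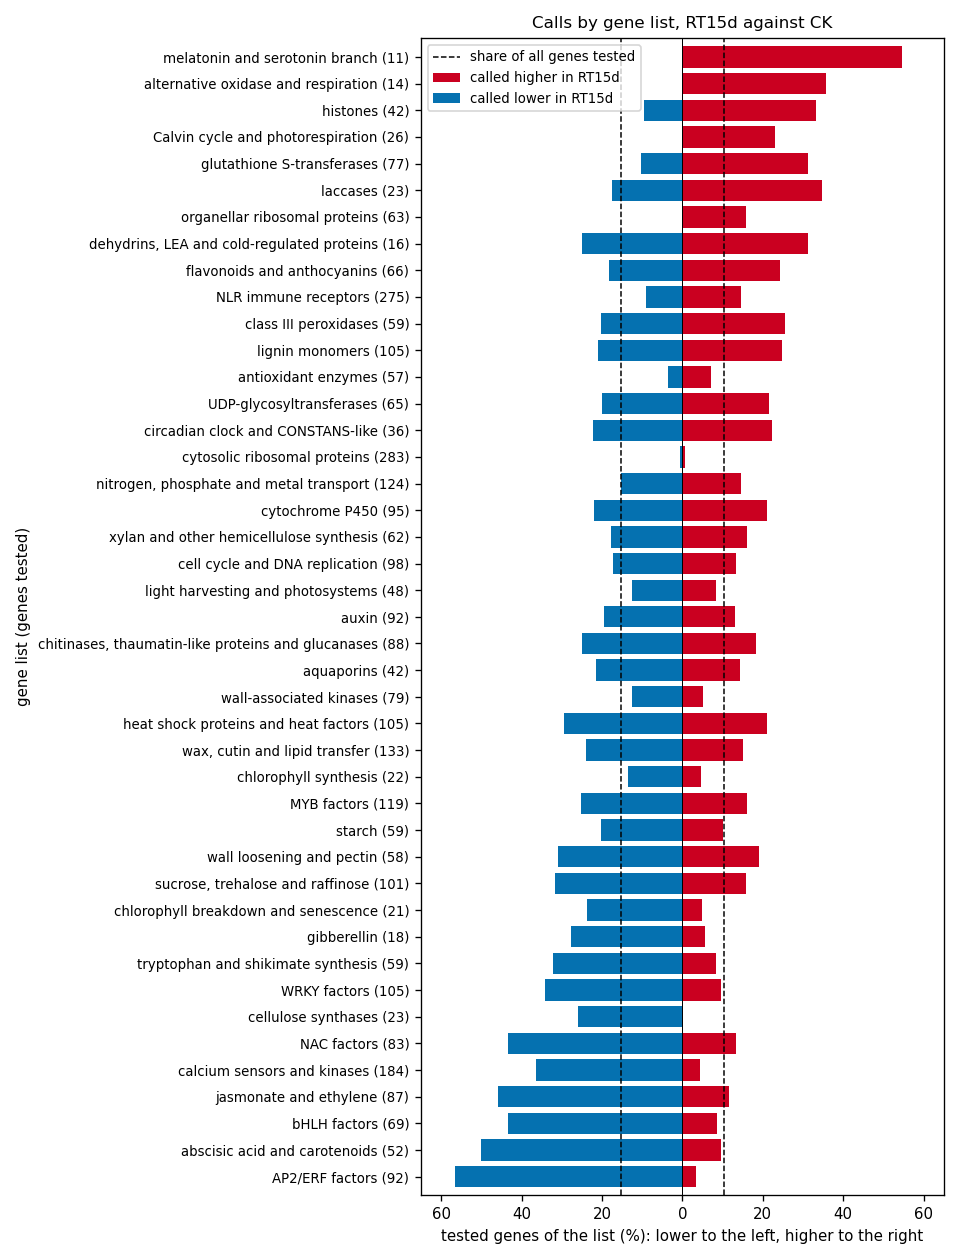
Share of the tested genes of each fixed gene list (number tested in brackets, lists of 10 or more) called lower (left, blue) or higher (right, red) in RT15d than in CK, with dashed lines at 15.3% and 10.4%, the shares of all genes tested. AP2/ERF factors and abscisic acid genes have the longest bars to the left, and the serotonin and melatonin branch the longest to the right.

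No source states the hour at which culms were cut, so daily timing and group cannot be told apart. GIGANTEA, a clock gene with a daily rhythm, was lower for both copies, PH02Gene42221 at 139.7, 163 and 163 FPKM in CK and 58.7, 59.9 and 62.2 in RT15d (log2 fold change -1.63 ± 0.17, adjusted p = 1.21e-06) and PH02Gene29623 at 83.6, 158 and 153 and 53.1, 51.7 and 54.8 FPKM (log2 fold change -1.60 ± 0.21, adjusted p = 1.32e-05). Adagio-like protein 3 PH02Gene44375, a blue light sensor of the clock, fell from 15.4, 38.7 and 31.9 to 1.35, 1.23 and 0.775 FPKM (log2 fold change -4.97 ± 0.33, adjusted p = 1.15e-08) and was high again at RT25d (log2 of RT25d over RT15d 4.87 ± 0.33, adjusted p = 7.29e-09). In the clock list 8 of 36 genes were higher and 8 lower. 

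Defence genes were mixed. Of NLR immune receptors, which sense pathogen proteins, 40 of 275 tested genes were called higher and 25 lower, with a median log2 fold change of 0.32, and without CK replicate 1 68 were higher and 31 lower. The RPP13-like receptor PH02Gene43807 rose from 0.118, 0.198 and 0.584 to 9.51, 10.7 and 10.2 FPKM (log2 fold change 4.77 ± 0.58, adjusted p = 1.02e-05) and the RGA2-like receptor PH02Gene10522, the most abundant, fell from 96.9, 145 and 130.4 to 33.5, 33.6 and 34.4 FPKM (log2 fold change -2.15 ± 0.17, adjusted p = 7.03e-08). Of chitinases, thaumatin-like proteins and glucanases, 16 of 88 tested genes were called higher and 22 lower, with a median log2 fold change of 0.05. The balance turned to 27 higher and 19 lower without CK replicate 1 and to 21 higher and 20 lower when scaled by library size. The thaumatin-like gene PH02Gene28313 fell from 8.26, 18.3 and 14.5 to 0.345, 0.557 and 0.142 FPKM (log2 fold change -5.55 ± 0.62, adjusted p = 2e-06). Chitinase 8 PH02Gene03004, which cuts fungal walls, had 246, 237 and 197 FPKM in CK and 521, 488 and 539 in RT15d and missed the 2-fold limit (log2 fold change 0.93 ± 0.26, adjusted p = 0.00712).

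Some large rises belonged to none of these lists. Germin-like protein 8-7 PH02Gene23364, of a wall protein family linked to defence in rice, rose from 0.306, 0.483 and 0.211 to 16.9, 22.3 and 21.1 FPKM (log2 fold change 5.60 ± 0.75, adjusted p = 1.34e-05), and hydroxycinnamoyltransferase 4-like PH02Gene11151, which moves phenolic acids between acceptors, from 0.194, 0.2 and 0.203 to 15.1, 14.6 and 16.6 FPKM (log2 fold change 5.98 ± 0.49, adjusted p = 1.04e-07). A gene named titin in the table, PH02Gene32876, a name taken from an animal muscle protein that says nothing of its role here, rose from 0.0456, 0.0862 and 0.276 to 198, 199 and 207 FPKM (log2 fold change 10.23 ± 0.79, adjusted p = 5.35e-08). Chosen after the values were seen, (-)-germacrene D synthase PH02Gene09086, which makes a volatile sesquiterpene, rose from 38.3, 6.83 and 16.4 to 279, 279 and 283 FPKM (log2 fold change 3.59 ± 0.40, adjusted p = 2.15e-06), and an isoaspartyl peptidase/L-asparaginase gene, PH02Gene00467, which can release nitrogen from asparagine, from 34.5, 11.4 and 17.9 to 444, 422 and 462 FPKM (log2 fold change 4.18 ± 0.39, adjusted p = 3.69e-07). Tyrosine N-monooxygenase PH02Gene48657, whose sorghum counterpart starts cyanogenic glucoside synthesis, fell from 9.11, 36.5 and 15.2 to 0.062, 0 and 0 FPKM (log2 fold change -10.13 ± 1.21, adjusted p = 1.7e-05).

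For some genes of pigment chemistry the call rested on CK replicates 2 and 3. Pheophorbide a oxygenase PH02Gene03620, which opens the chlorophyll ring during breakdown, had 15.1, 481 and 451 FPKM in CK and 41.6, 42 and 40.8 in RT15d (log2 fold change -3.26 ± 0.71, adjusted p = 0.00111), so that RT15d lay between CK replicate 1 and the other 2. Polyphenol oxidase PH02Gene01841, which oxidises phenols to dark quinones, had 0, 55 and 71.5 FPKM in CK and 1.18, 1.19 and 1.4 in RT15d (log2 fold change -5.39 ± 1.25, adjusted p = 0.00188), again with CK replicate 1 below RT15d. Cinnamoyl-CoA reductase 1 PH02Gene01704, the most abundant lignin monomer gene, had 161, 693 and 863 FPKM in CK and 252, 243 and 252 in RT15d (log2 fold change -1.51 ± 0.38, adjusted p = 0.00379). Each of these 3 calls was lost when RT15d was summed to 1 library (adjusted p = 0.0595, 0.0841 and 0.0907 in that order) and when the 6 libraries were fitted alone (adjusted p = 0.0638, 0.0747 and 0.0962). Laccase-25-like PH02Gene33834 was the same in kind, with 0.213, 52.7 and 56.5 FPKM in CK and 0.148, 0.0626 and 0.208 in RT15d (log2 fold change -8.33 ± 1.43, adjusted p = 0.000148), CK replicate 1 being just above the highest RT15d library. Wall-associated receptor kinase 3 PH02Gene42232, with 120.2, 8.07 and 9.5 FPKM in CK and 59.2, 54.7 and 57.9 in RT15d, was split the opposite way and not called (log2 fold change 0.19 ± 0.81, adjusted p = 0.861). The second polyphenol oxidase, PH02Gene03906, gave -0.71 ± 0.79. In chlorophyll breakdown and senescence 1 of 21 tested genes were called higher and 5 lower, with a median log2 fold change of -0.91, and 9 were lower without CK replicate 1.

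**Figure D5:**
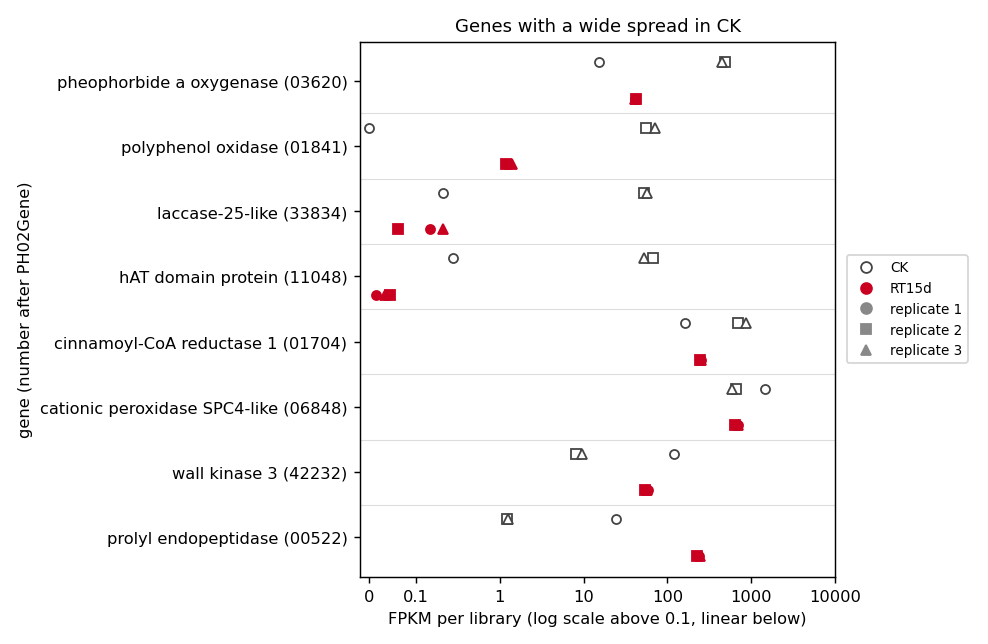
FPKM per library (horizontal, log scale above 0.1 and linear below) of 8 genes with a wide spread in CK, open points for CK and filled for RT15d, shapes for replicates. CK replicate 1 (circle) lies on the other side of RT15d from CK replicates 2 and 3 for pheophorbide a oxygenase, polyphenol oxidase, cinnamoyl-CoA reductase 1 and wall-associated receptor kinase 3, and prolyl endopeptidase, chosen after its values were seen, is higher in RT15d than in any CK library.

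Grouped by KEGG pathway, the largest shares of genes called higher were in secondary metabolism. Among pathways with 20 to 400 tested genes, stilbenoid, diarylheptanoid and gingerol biosynthesis had 22 higher and 9 lower of 58, flavone and flavonol biosynthesis 13 higher and 6 lower of 36, phenylalanine metabolism 32 higher and 8 lower of 93, monoterpenoid biosynthesis 7 higher and 3 lower of 21, isoquinoline alkaloid biosynthesis 13 higher and 6 lower of 42 and flavonoid biosynthesis 33 higher and 25 lower of 109. The summed level of flavonoid biosynthesis nonetheless fell, from 3284, 3724 and 3460 FPKM in CK to 3121, 3076 and 3197 in RT15d. That of monoterpenoid and of isoquinoline alkaloid biosynthesis overlapped between the groups, and that of the other pathways just named rose. Phenylpropanoid biosynthesis held 76 higher and 56 lower of 273, so it was above the background in both directions. The largest shares called lower were in taurine and hypotaurine metabolism with 0 higher and 12 lower of 23, linoleic acid metabolism with 1 higher and 7 lower of 21, cyanoamino acid metabolism with 11 higher and 30 lower of 91, beta-alanine metabolism with 5 higher and 23 lower of 75, alpha-linolenic acid metabolism, the route to jasmonate, with 3 higher and 26 lower of 87, and arginine and proline metabolism with 7 higher and 33 lower of 111. Of the signalling pathways, MAPK signalling had 35 higher and 121 lower of 414 and hormone signal transduction 66 higher and 138 lower of 597. The summed level nonetheless rose for MAPK signalling, from 10106.5, 9416 and 8848 to 10822, 10538 and 11023.5 FPKM. It also rose for linoleic acid metabolism, from 417, 416 and 381 to 524, 534 and 541 FPKM. It overlapped for cyanoamino acid metabolism and fell for hormone signal transduction and the remaining pathways with the largest shares lower. Such sums are weighted to abundant members, so that 1 gene can set their direction, and the part of single genes was not separated. Plant-pathogen interaction had 100 higher and 143 lower of 688, both shares being above the background, and the balance turned to 156 higher and 148 lower without CK replicate 1 and to 134 higher and 116 lower when scaled by library size. Circadian rhythm had 33 higher and 21 lower of 142, photosynthesis 11 higher and 5 lower of 80, antenna proteins 0 higher and 6 lower of 29 and the ribosome 32 higher and 12 lower of 572. Without CK replicate 1, phenylalanine metabolism had 34 higher and 14 lower, beta-alanine metabolism 8 higher and 24 lower, arginine and proline metabolism 11 higher and 38 lower, photosynthesis 10 higher and 8 lower and the ribosome 50 higher and 16 lower.

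The Gene Ontology (GO) terms with the largest shares called higher were nucleosome with 24 higher and 0 lower of 37, toxin catabolic process with 22 higher and 4 lower of 42, L-phenylalanine catabolic process with 14 higher and 3 lower of 28, nucleosome assembly with 29 higher and 1 lower of 63, photosystem II with 12 higher and 1 lower of 30 and sesquiterpene synthase activity with 10 higher and 3 lower of 25. Also among them was farnesyl diphosphate metabolic process, with 8 higher and 2 lower of 20. Oxalate metabolic process had 16 higher and 9 lower of 42, both shares being above the background. The summed level of sesquiterpene synthase activity did not rise, at 2628, 1521 and 2136 FPKM in CK and 1594, 1525 and 1532 in RT15d. Nor did that of farnesyl diphosphate metabolic process, at 1165, 707 and 984 FPKM in CK and 808, 787 and 789 in RT15d. For the other terms named here every RT15d library was above every CK library in summed level. Terms with the largest shares called lower were negative regulation of nucleic acid-templated transcription with 0 higher and 29 lower of 36, regulation of jasmonic acid mediated signaling pathway with 3 higher and 27 lower of 41, glucosinolate metabolic process with 3 higher and 27 lower of 42, regulation of defense response with 4 higher and 33 lower of 58, transcription corepressor activity with 1 higher and 26 lower of 48, trehalose-phosphatase activity with 7 higher and 18 lower of 36, response to chitin with 10 higher and 60 lower of 123 and primary amine oxidase activity with 4 higher and 11 lower of 24. Of the terms and pathways with 0 calls in 1 direction, taurine and hypotaurine metabolism had 3 genes higher at an unadjusted p under 0.05 and the others 0, and DESeq2 called 0 in that direction in each. Without CK replicate 1, regulation of defense response had 8 higher and 33 lower and transcription corepressor activity 3 higher and 27 lower. Terms share genes, so these counts overlap, and the terms were picked by their share and carry no test.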

How the data were processed

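Total RNA from Pn culms was sequenced as paired-end reads. The labels describe SMARTer cDNA and list cutadapt, FastQC and Salmon, whereas the study's methods describe HISAT2, StringTie and ballgown on the P. edulis genome. The sources used here do not say which of them made each column, whether counting used strand or how multi-mapping reads were treated. The authors deposited 1 table with counts and FPKM values per gene, and both are used as deposited. Counts of 4 were more frequent (13669 values) than counts of 3 (7391) or 5 (5647), so 1 read pair was taken to give 4 counts, an assumption, and the floor for a gene at 0 was 12 counts per library (3 pairs).

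All 21 libraries (7 groups) were fitted together with edgeR 4.0.16 (TMM factors, quasi-likelihood test, Benjamini-Hochberg adjustment over all genes tested). DESeq2 1.42.0 and limma 3.58.1 in R 4.3.3 were alternatives. The scripts were run on simulated data with 100 changes of 2-fold and 100 of 4-fold, judged by adjusted p alone. The edgeR test recovered 52 and 80 of them with 4 false calls, DESeq2 64 and 88 with 45, and limma 50 and 78 with 2. The simulation gave every group the same spread, unlike CK and RT15d, so it does not measure error rates for this comparison. Gene lists were matched by words in the deposited descriptions and are described by counts and medians, without a set test. Named genes were the 15 largest rises and 15 largest falls with a usable name, non-overlapping libraries and at least 10 FPKM, the 2 most abundant and the most changed member of each of 44 lists, the 3 most abundant genes of each group, and every member of the melatonin and polyphenol oxidase lists. Members and lists were chosen with earlier results of these data known. An exact permutation test of 3 against 3 libraries cannot give a p below 0.1, and none was used. Intervals cover counting error only.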

Additional observations from a re-analysis of the deposited data

Results flagged for a closer look

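Of the 15 named genes with the largest rises from CK to RT15d, 13 differed between RT15d and RT25d by the same test and limits as in the main comparison, and all 13 were lower at RT25d. The 15 were picked for their rise to RT15d, and the same RT15d libraries enter both comparisons, which favours a lower RT25d. The share of all genes tested that fell in this way was not counted. On the log2 scale, RT25d minus RT15d was -4.13 for the lipid-transfer gene PH02Gene11876, -5.20 for lipid-transfer gene PH02Gene06714, -3.03 for Peroxidase 11 (PH02Gene25849) and -3.89 for CASP-like 1C1 (PH02Gene37612). It was -5.28 and -5.55 for the feruloyl transferases PH02Gene31779 and PH02Gene49011 and -4.79 for CYP86B1 (PH02Gene30440). Polyol transporter 1 (PH02Gene48255) gave -2.46 and vacuolar invertase (PH02Gene05690) -9.17, from 124 ± 6.5 FPKM at RT15d to 0.216 ± 0.194 FPKM at RT25d (mean ± SD, n = 3), the largest of these differences. The remaining differences were -5.03 for the gene named titin (PH02Gene32876), -4.38 for PH02Gene13836 and -4.68 for PH02Gene03989, both without a functional name, and -1.82 for PH02Gene30337, named 11-beta-hydroxysteroid dehydrogenase 1B. Groups of 3 libraries are too small for a test of single outlying libraries.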

How the results depend on the processing

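With the CK and RT15d libraries paired by replicate number (replicate block), 3201 genes were called higher and 4437 lower, against 3122 and 4578. The deviations of same-numbered libraries did not correlate (r = -0.00118, -0.00347 and 0.00402). The RT15d libraries were close to repeated measurements of 1 sample, so this cannot show whether the numbers pair the samples. No named gene lost its call under the block. Counts of calls moved by more than 1.5 times in these settings: a mean of at least 5 FPKM, which left 17314 genes, gave 1331 higher and 2691 lower, limma with a pseudocount of 0.1 gave 5213 higher, limma with a pseudocount of 1 gave 2478 lower, and dropping the 2-fold limit gave 6626 higher and 7820 lower. Leaving out 1 library at a time gave 2587 to 4311 genes higher and 3955 to 5171 lower. DESeq2 called 3411 higher and 4592 lower. The share of calls that were higher was 40.5% with TMM factors, 42.2% with median-of-ratios factors, 42.6% with DESeq2, 55.9% with library size only, 55.7% with limma and 62.2% with limma at the smaller pseudocount. Of 188 named genes none reversed in a call. The calls of 13 were lost with RT15d summed to 1 library, of 7 with limma at a pseudocount of 0.1, of 6 with limma at 1 and of 5 with the 6 libraries alone. Depth limits what can be said of genes at 0, where only a floor of 12 counts per library stands behind a fold.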
